A study of Homo sapiens with 45 samples.

Results

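The HOXB cluster genes, HOXB1 to HOXB9 and HOXB13, lie on chromosome 17, and 235 of the 434524 listed fragment pairs (152688 of them within 1 chromosome) reached at least one of these 10 genes. A pair was taken when both fragments lay on chromosome 17 and either one came within 1000 bp of an annotated end of a HOXB gene, and each was counted once. The choice used positions only and no measured value.

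The contacts were measured by poised-enhancer capture Hi-C, in which DNA fragments cut with DpnII are joined where they lie together in fixed nuclei, and fragments holding poised enhancers are pulled down as baits. All cells were HNES1, an established human embryonic stem cell line, harvested on day 5 after leaving naive culture conditions for primed ones. They received UNC6852 at 2.5 µM, a PROTAC that degrades EED, a core subunit of the Polycomb complex PRC2, UNC1999 at 1 µM, an inhibitor of the EZH1 and EZH2 subunits that carry the catalytic activity, or an equal volume of DMSO, each added 24 h before day 0 and renewed daily. Each condition had 15 libraries, made from 3 biological replicates in 2 batches, and is given here by 1 score pooled over the 15 libraries. There was therefore no spread between replicates and no test: what follows are values of 3 pooled profiles, and the doses of the compounds differ, so their values stand side by side and are not compared as to strength.

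HOX genes encode homeodomain transcription factors that give cells their position along the head-to-tail axis of the embryo. In the 4 mammalian HOX clusters the order of the genes along the chromosome follows the order of the body regions in which they are used, so that HOXB1 acts in the hindbrain and HOXB13 toward the tail. In pluripotent cells these genes are silent and covered by PRC2, which methylates histone H3 at lysine 27, and poised enhancers carry the same mark. No expression and no histone mark was measured in these libraries, so the cell identity and the loss of the mark were not checked here.

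A CHiCAGO score says by how much the reads joining a bait to another fragment exceed a model of the background at that distance, and scores of 5 or more counted as calls. Every listed pair reached 5 in at least 1 profile, so a pair absent from the list is not a measured 0. Differences were taken between asinh-transformed scores, a scale close to a logarithm for high scores that keeps the many scores of 0. Baits were short, with a median of 625 bp for captured fragments, whereas uncaptured other ends had a median of 5265 bp and could span the ends of 2 genes.

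Only 1 of the 10 HOXB genes had a promoter sequence in the RefSeq table for GRCh38.p14. It is shown because 2 baits meet within it, and it stands beside the promoter of the antisense RNA gene SKAP1-AS2, whose fragment was met by HOXB5 and HOXB6 with different scores, and the mature microRNA from the HOXB4 side of the cluster. Capitals mark the DpnII site (GATC) in the promoters, each read on the gene's own strand from 250 bases before to 50 after the start, and the seed (bases 2 to 8) in the microRNA.
HOXB1 promoter, chr17:48530962-48531261, minus strand: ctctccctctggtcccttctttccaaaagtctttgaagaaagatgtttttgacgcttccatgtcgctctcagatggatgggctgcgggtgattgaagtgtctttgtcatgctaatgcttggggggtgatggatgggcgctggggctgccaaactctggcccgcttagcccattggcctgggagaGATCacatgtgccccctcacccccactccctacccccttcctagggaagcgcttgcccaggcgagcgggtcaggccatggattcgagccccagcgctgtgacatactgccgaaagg
SKAP1-AS2 promoter, chr17:48294097-48294396, plus strand: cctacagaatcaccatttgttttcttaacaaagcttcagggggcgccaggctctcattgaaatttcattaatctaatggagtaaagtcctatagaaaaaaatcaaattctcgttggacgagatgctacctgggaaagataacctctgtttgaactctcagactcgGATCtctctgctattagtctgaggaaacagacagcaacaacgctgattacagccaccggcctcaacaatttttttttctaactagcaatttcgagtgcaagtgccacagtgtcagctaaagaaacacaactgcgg
hsa-miR-10a-5p, chr17:48579904-48579926, minus strand: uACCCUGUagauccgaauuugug

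The GATC of the HOXB1 promoter starts at position 48531074, which is where the bait chr17:48530430-48531073 ends and the bait chr17:48531074-48531603 begins. GATC, which reads the same on both strands, occurs in 41.7% of the RefSeq promoters of the same length, so its presence is common. The HOXB1 promoter holds 11 CG dinucleotides and the SKAP1-AS2 promoter holds 8, against a median of 14 over all promoters. MIR10A lies within the uncaptured fragment chr17:48578296-48581762 that reaches the HOXB4 end.

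The 235 pairs joined 28 fragments at HOXB genes to partners spread very unevenly around the cluster. The HOXB fragment was the bait in 161 pairs, the other end in 71, and both ends in 3. Of the 235 pairs, 214 (91.1%) ran toward lower coordinates, 18 toward higher coordinates, and 3 joined HOXB genes to each other. HOXB13 stood apart in this, with 12 of its 17 pairs toward higher coordinates. For the other HOXB genes, 210 of the 216 pairs whose far end was at no HOXB gene ran toward lower coordinates.

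The stretch that met the HOXB genes most was SKAP1, which encodes an adaptor protein of T-cell receptor signalling and lies 83.5 kb from HOXB1. It held the far end of 153 pairs (65.1%), although only 2 HOXB pairs reached an annotated end of SKAP1 itself. A further 32 pairs ended between SKAP1 and HOXB1, 27 ended beyond SKAP1 and 18 beyond HOXB13, and 2 ended within the HOXB1 to HOXB13 span away from HOXB gene ends. Of the 27, 13 reached an end of COPZ2, which encodes a subunit of the coatomer of vesicle transport. The median distance was 346 kb, against 314 kb over all cis pairs. By distance, 1 pair was shorter than 20 kb, 31 spanned 20 to 100 kb, 174 spanned 100 to 500 kb, 27 spanned 0.5 to 2 Mb and 2 were longer.

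**Figure D1:**
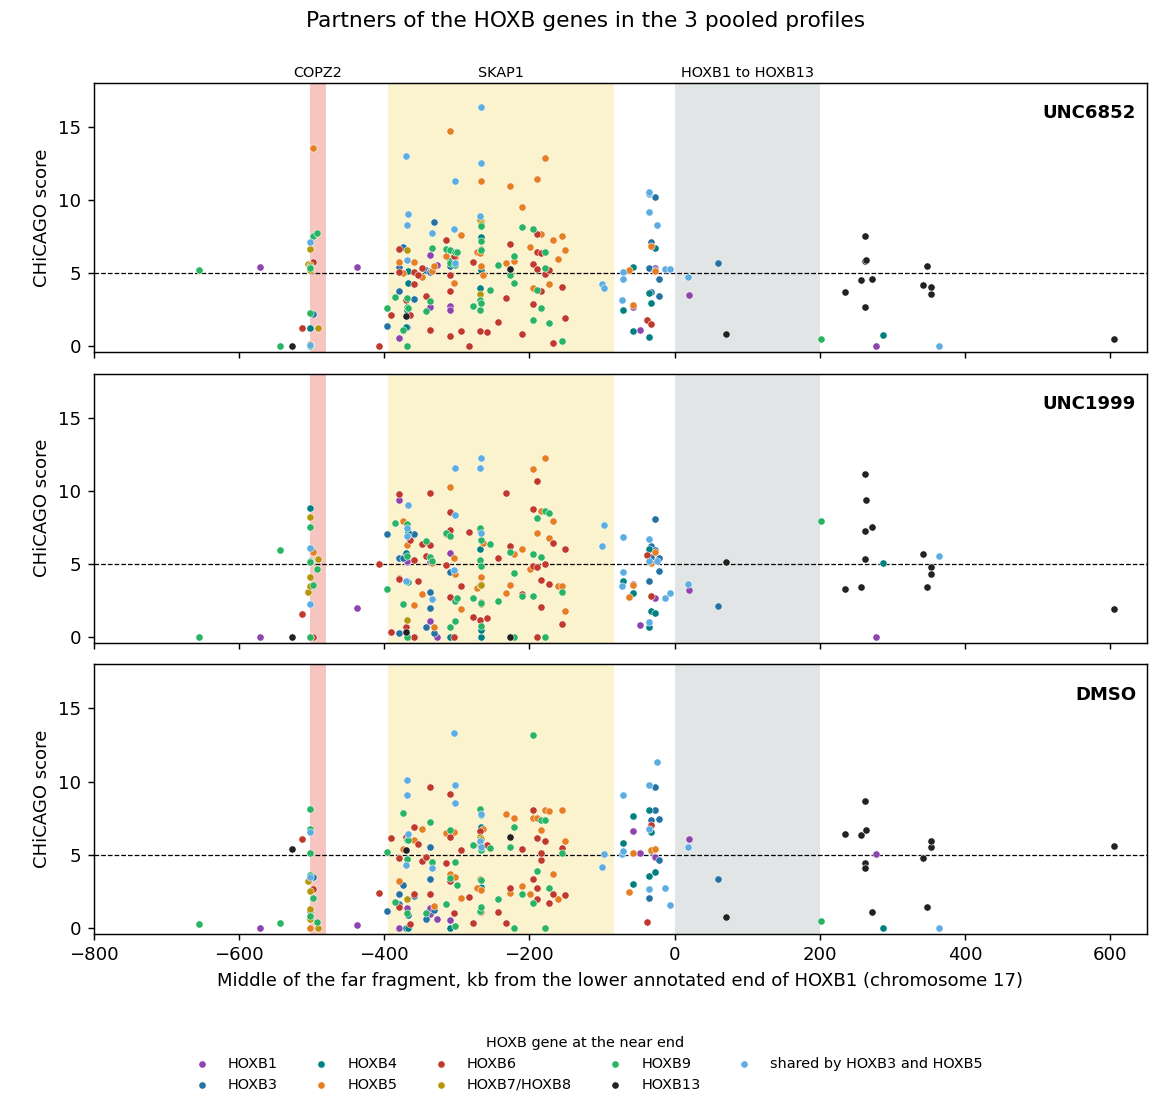
CHiCAGO score (vertical axis) of each HOXB pair against the position of the middle of its far fragment, in kb from the lower annotated end of HOXB1, in the UNC6852, UNC1999 and DMSO profiles from top to bottom; colours give the HOXB gene at the near end, shading marks COPZ2, SKAP1 and the HOXB1 to HOXB13 span, and the dashed line is the call score of 5. Most points lie over SKAP1 in all 3 profiles, HOXB13 (black) reaches mainly to the right of the cluster, and 4 pairs fall outside the drawn range.

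Taken over the whole cluster, the 3 profiles called similar numbers of HOXB pairs. UNC6852 called 122 pairs (51.9%), UNC1999 113 (48.1%) and DMSO 105 (44.7%), against 46.1%, 42.3% and 42.4% of all cis pairs. The median HOXB score was 5.07 in UNC6852, 4.78 in UNC1999 and 4.43 in DMSO. The highest was 16.4 in UNC6852, 12.2 in UNC1999 and 13.3 in DMSO.

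Per pair, the UNC6852 score was higher than the DMSO score in 123 pairs and lower in 109, and the asinh difference averaged 0.14; over all cis pairs 50.8% were higher and 45.2% lower. A difference of 1 or more was seen upward in 49 pairs (20.9%) and downward in 25 (10.6%), where all cis pairs gave 20.2% upward and 17.1% downward. For UNC1999, 118 pairs were higher and 111 lower, where all cis pairs gave 47.9% higher and 47.4% lower. The mean difference was 0.09, and 44 pairs (18.7%) were higher and 32 (13.6%) lower by 1 or more, against 18.6% and 18.7% of all cis pairs. The upward shares thus lay close to the background over all distances and the downward shares below it. Of the 174 HOXB pairs at 100 to 500 kb, 37 were higher and 18 lower by 1 or more in UNC6852, and 34 and 21 in UNC1999. The 98451 cis pairs of that distance gave 16857 higher and 14416 lower in UNC6852, and 15600 and 15950 in UNC1999.

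The sign of the cluster mean depends on how the 3 profiles are scaled to each other. With scores quantile-normalized over all listed pairs, the mean HOXB difference was -0.08 for UNC6852 and -0.14 for UNC1999, while the mean over all cis pairs was -0.14 and -0.23, against 0.08 and -0.00044 as deposited. Relative to all cis pairs, the HOXB pairs stood 0.07 higher in UNC6852 as deposited and 0.06 higher after normalization, and 0.09 higher in UNC1999 under both. The median over HOXB pairs was smaller than the mean, 0.06 for UNC6852 and 0.01 for UNC1999 as deposited.

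**Figure D2:**
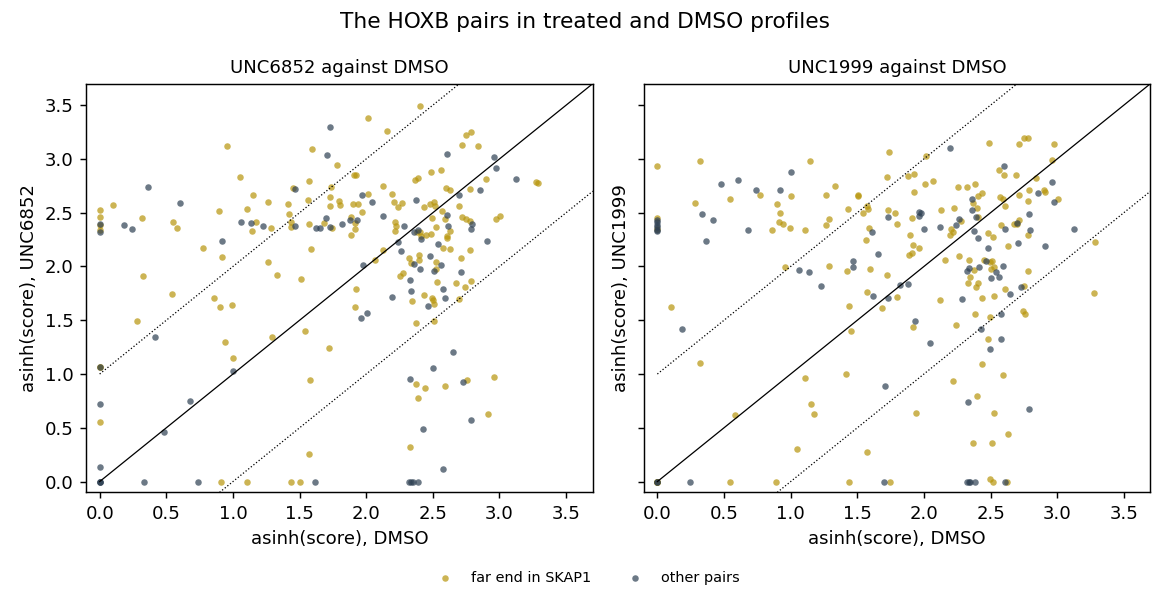
Each HOXB pair by its asinh score in DMSO (horizontal) and in UNC6852 (left) or UNC1999 (right); the solid line marks equal scores, dotted lines a difference of 1, and gold points have their far end in SKAP1. Points spread widely about the line in both panels, and the lower left is nearly empty because only pairs with a score of 5 in some profile are listed.

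Calls came back from one profile to another in fewer than 1 of 2 cases, but more often than over all cis pairs. Of the 105 DMSO calls of the HOXB genes, 45 were also called in UNC6852, which is 42.9% (exact 95% interval 33.2 to 52.9), against 31.4% of all DMSO calls. In UNC1999 44 were called again, which is 41.9% (32.3 to 51.9), against 29.3%. The intervals cover counting error over pairs that share fragments and are no test. Most HOXB pairs lie between 100 and 500 kb, and in that class 42.9% and 41.6% of 77 DMSO calls were called again in UNC6852 and UNC1999, against 34.3% and 32.0% of all cis DMSO calls at that distance.

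The same share stood at 59.0% in UNC6852 and 47.5% in UNC1999 for HOXA, at 44.3% and 44.8% for HOXC, and at 43.6% and 40.5% for HOXD. The HOXB interval overlaps those of the other 3 clusters in both profiles, which is no test of a difference. The overlap is smallest with HOXA in UNC6852, at 50.3 to 67.3 against 33.2 to 52.9 for HOXB. UNC6852 and UNC1999 differed from each other about as much as each differed from DMSO. Of the HOXB calls, 37.7% of those in UNC6852 were found in UNC1999 and 40.7% of those in UNC1999 in UNC6852. Over all cis pairs these shares were 29.1% and 31.7%. The median absolute asinh difference per HOXB pair was 0.64 for UNC6852 against DMSO, 0.59 for UNC1999 against DMSO and 0.62 for UNC6852 against UNC1999. Over all cis pairs it was 0.70 in each of these comparisons.

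**Figure D3:**
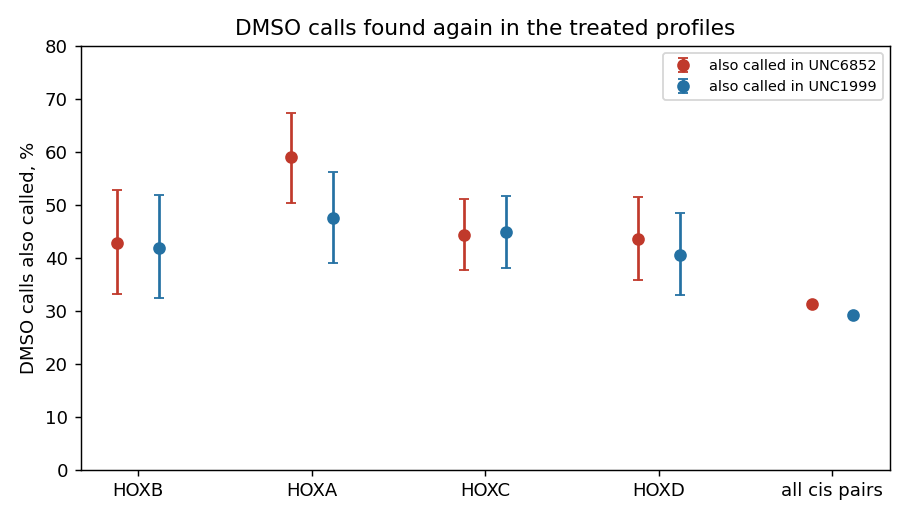
Share of the DMSO calls of each HOX cluster and of all cis pairs that were also called in UNC6852 (red) or UNC1999 (blue), in percent, with exact 95% binomial intervals over the calls. HOXB stands at 42.9% and 41.9%, all cis pairs at 31.4% and 29.3%, and HOXA in UNC6852 is the highest at 59.0%.

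By pattern, 30 HOXB pairs (12.8%) were called in all 3 profiles, against 8.33% of all cis pairs. Calls in both treated profiles but not in DMSO numbered 16 (6.81%, against 5.09%), and calls in DMSO alone numbered 46 (19.6%, against 25.0%). UNC6852 alone called 61 pairs (25.96%, against 27.74%) and UNC1999 alone 53 (22.55%, against 24.78%). The pairs called in all 3 profiles belonged to HOXB3, HOXB5, HOXB9 and HOXB13, with 15, 21, 4 and 2 pairs, some of which count for both HOXB3 and HOXB5. Without the 1 fragment that reaches ends of both HOXB3 and HOXB5, 18 of 208 pairs (8.65%) were called in all 3 profiles, close to the share of all cis pairs. The other HOX clusters had higher shares than HOXB, with 19.9% for HOXA, 17.4% for HOXC and 14.5% for HOXD.

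How far neighbouring fragments differ inside 1 profile gives a rough measure of the spread of single scores, although neighbours need not have equal contacts. For 33 cases of neighbouring baits that met the same other end, the median absolute asinh difference between the neighbours was 0.42 in UNC6852, 0.56 in UNC1999 and 0.48 in DMSO. For 83 cases of neighbouring other ends of 1 bait it was 0.46, 0.42 and 0.65 in UNC6852, UNC1999 and DMSO. The median difference of a HOXB pair between profiles, 0.59 to 0.64, lay above these neighbour values except that of neighbouring other ends in DMSO, 0.65. It covers all 235 pairs and the neighbour values only the 33 and 83 cases, so the sets are unlike and the excess is not interpreted. The single pairs named below are to be read with the spread between neighbours.

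At the front of the cluster, HOXB1, needed in the mouse for the identity of a hindbrain segment, had 17 pairs from 5 baits. UNC6852 called 5 of them, UNC1999 7 and DMSO 5, each pair in 1 profile only. Its mean asinh score was 1.38 in UNC6852, 1.54 in UNC1999 and 1.21 in DMSO, the lowest of the HOXB genes with pairs in UNC6852 and in DMSO. The pair of highest mean score joined the bait that ends at the GATC of the printed promoter to a fragment 59.9 kb away, between SKAP1 and HOXB1, and scored 2.66 in UNC6852, 3.65 in UNC1999 and 6.64 in DMSO. The bait on the other side of that site met LOC124904018, a long non-coding RNA gene within SKAP1, 382 kb away with a score of 0.58 in UNC6852, 9.36 in UNC1999 and 0 in DMSO, which was the largest upward difference in UNC1999 (2.93). HOXB1 scores are thus low and were called in different pairs in the different profiles.

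HOXB2, the next gene, also of the hindbrain, had no listed cis pair under the 1000 bp rule. The nearest fragment with pairs, chr17:48547100-48547600, ends 1991 bp from it, and lies 1270 bp from HOXB3, so it belongs to neither gene. It was a bait with 12 pairs, of which 8 were called in UNC6852, 4 in UNC1999 and 5 in DMSO.

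HOXB3 and HOXB5 held the highest scores of the cluster and share a fragment. HOXB3, active in the hindbrain, had 47 pairs, of which 31 were called in UNC6852, 27 in UNC1999 and 25 in DMSO. HOXB5, a gene used in the gut nervous system and the lung of the mouse embryo, had 65 pairs, with 50 called in UNC6852, 36 in UNC1999 and 37 in DMSO. The uncaptured fragment chr17:48586282-48591512, 5231 bp long, reaches one end of each gene, and its 27 pairs count for both. Without that fragment the cluster had 208 pairs, with 102, 97 and 87 calls in UNC6852, UNC1999 and DMSO, and the shares of DMSO calls found again were 36.8% in UNC6852 and 35.6% in UNC1999.

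The shared fragment met 12 of its 27 partners with a call in all 3 profiles. UNC6852 called 20 of the 27, UNC1999 16 and DMSO 18. Of the 18 DMSO calls, 13 were called in UNC6852 and 13 in UNC1999, which is 72.2% (46.5 to 90.3) for each, and 12 of the 13 were the same pairs. Its partners are baits, and they come in tight groups.

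The group most strongly met lies in SKAP1, about 327 kb away, and consists of 3 adjoining baits within chr17:48260757-48261926. The fragment's score with the bait starting at 48261608 was 12.5 in UNC6852, 12.2 in UNC1999 and 7.80 in DMSO. With the bait starting at 48261099 it was 16.4 in UNC6852, the highest of all HOXB pairs, 7.10 in UNC1999 and 5.51 in DMSO. With the bait starting at 48260757 it was 8.89, 11.6 and 5.96 in UNC6852, UNC1999 and DMSO. All 9 scores passed 5, and in each of the 3 baits both treated profiles lay above DMSO.

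A second group of baits within SKAP1, at 363 to 364 kb within chr17:48224762-48226261, did not show that order. Its 3 scores with the shared fragment were 7.99, 11.3 and 5.71 in UNC6852, 4.58, 8.36 and 11.6 in UNC1999, and 13.3, 8.54 and 9.79 in DMSO. Another group, about 428 kb away at the far side of SKAP1, was met by 4 baits with scores of 5.89 to 13.01 in UNC6852, 3.84 to 9.06 in UNC1999 and 4.26 to 10.1 in DMSO. Each group was called in all 3 profiles from at least 1 of its baits. A fragment of COPZ2 562 kb away had the largest downward difference in UNC6852 (-2.46), with 0.12 in UNC6852, 2.27 in UNC1999 and 6.53 in DMSO, although the adjoining bait at 563 kb had 7.14 in UNC6852, 6.11 in UNC1999 and 3.50 in DMSO, so that neighbours went opposite ways.

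The bait with the most pairs lies between HOXB5 and HOXB6 at chr17:48594300-48594741. It is 521 bp from the HOXB5 end and 1010 bp from the HOXB6 end, so it counts for HOXB5 under the 1000 bp rule and misses HOXB6 by 10 bp. All of its 30 pairs ran toward lower coordinates, over 93.4 to 569 kb. UNC6852 called 24, UNC1999 16 and DMSO 17, and 8 were called in all 3 profiles. The mean asinh difference was 0.37 for UNC6852 and 0.10 for UNC1999 as deposited, and 0.23 and -0.08 on quantile-normalized scores, so only the UNC6852 sign was kept.

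Within SKAP1 this bait met a run of 10 adjoining fragments, 54.3 kb in all, from 216 to 265 kb away. In the run UNC6852 called 8, UNC1999 6 and DMSO 7, and the median scores were 7.02, 6.94 and 7.09 in UNC6852, UNC1999 and DMSO. The highest point of the run, at 244 kb, scored 12.8 in UNC6852, 12.2 in UNC1999 and 8.06 in DMSO. Each profile thus called most of the run, but not the same fragments, as 3 of the 10 were called in all 3 profiles. Per fragment, the median asinh difference was 0.27 for UNC6852, with 7 of 10 higher than in DMSO, and 0.33 for UNC1999, with 6 of 10 higher.

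The largest upward differences of the bait in UNC6852 lay farther out. At 564 kb, in COPZ2 at the microRNA gene MIR10226, the score was 13.6 in UNC6852, 5.80 in UNC1999 and 2.72 in DMSO. In SKAP1 at 376 kb it was 14.7 in UNC6852, 10.3 in UNC1999 and 3.69 in DMSO. At 293 kb, inside SKAP1-AS2, it was 10.9 in UNC6852, 3.54 in UNC1999 and 2.36 in DMSO. UNC6852 called all of these and DMSO none. In UNC1999 the largest upward difference of the bait was at 569 kb, at the end of COPZ2, with 0.13 in UNC6852, 5.12 in UNC1999 and 0 in DMSO (2.34).

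**Figure D4:**
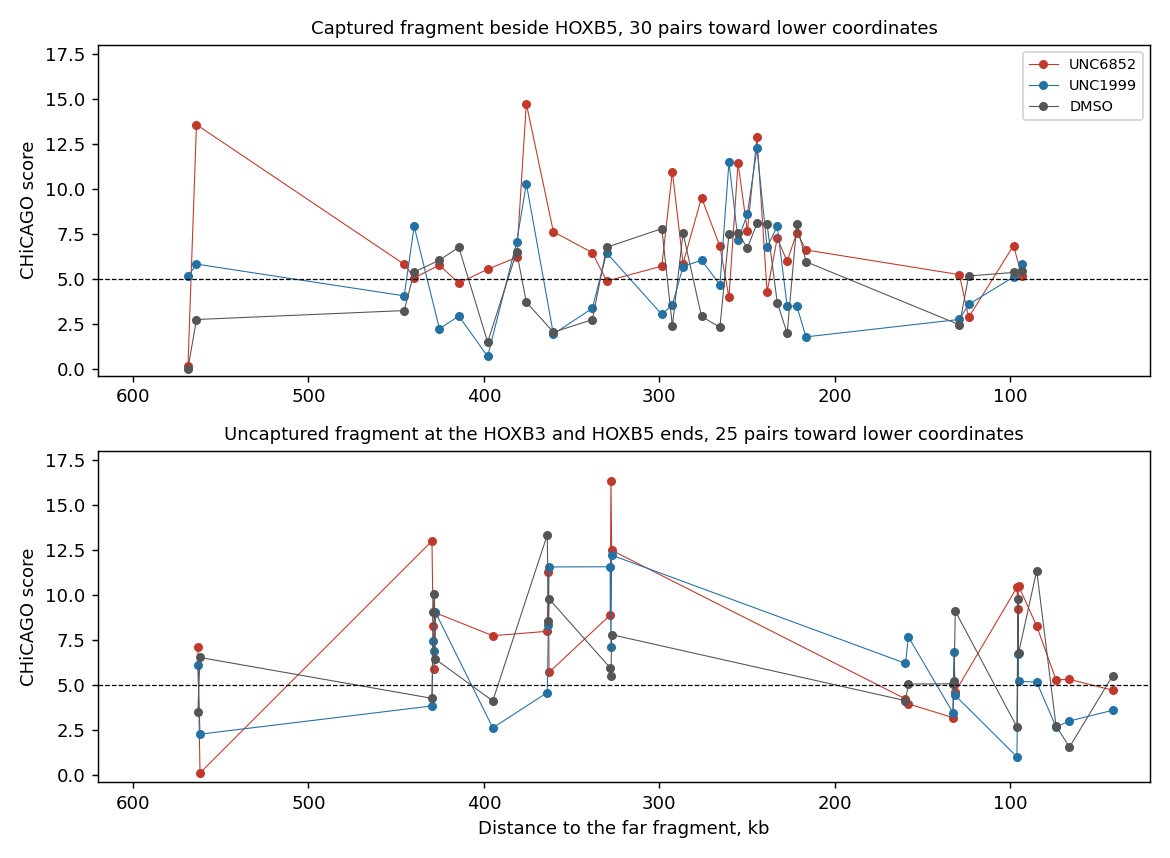
CHiCAGO scores in UNC6852 (red), UNC1999 (blue) and DMSO (grey) against the distance in kb toward lower coordinates, for the captured fragment beside HOXB5 (top, 30 pairs) and for the uncaptured fragment shared by HOXB3 and HOXB5 (bottom, 25 of its 27 pairs); lines join the listed pairs only and the dashed line is the call score of 5. The top panel shows the run at 216 to 265 kb in all 3 profiles and the 2 UNC6852 peaks at 376 and 564 kb, and the bottom panel shows the groups near 327, 363 and 428 kb.

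HOXB4, a gene known for enlarging the pool of blood stem cells when overexpressed, had 18 pairs, of which 7 were called in UNC6852, 6 in UNC1999 and 6 in DMSO, none in all 3. Its 2 baits lie close together and were called in different profiles. The bait chr17:48576370-48576793 was called in 4 of 5 pairs in UNC6852, 0 in UNC1999 and 1 in DMSO, and the bait chr17:48576893-48578295 in 1 of 7 pairs in UNC6852, 3 in UNC1999 and 3 in DMSO. The fragment holding MIR10A was called in 2, 3 and 2 of 6 pairs in UNC6852, UNC1999 and DMSO. The mean asinh difference of HOXB4 was 0.38 for UNC6852, positive under all alternatives tried (0.09 to 0.69), and 0.05 for UNC1999, where it took both signs (-0.17 to 0.22). Of the 18 pairs, 6 were called in UNC6852 alone and 5 in DMSO alone. Only pairs called in some profile are listed, and all alternatives keep that rule, so the kept sign is no independent check.

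HOXB6, the neighbour of HOXB5, had 48 pairs, with 18 called in UNC6852, 21 in UNC1999 and 19 in DMSO, and none in all 3. Its 3 baits went different ways. The bait starting at 48596158 was called in 4 of 6 pairs in UNC6852, 1 in UNC1999 and 2 in DMSO. The one starting at 48596551 was called in 8 of 23 pairs in UNC6852, 12 in UNC1999 and 7 in DMSO. The bait at the other end of the gene, starting at 48602616, was called in 3 of 14 pairs in UNC6852, 7 in UNC1999 and 9 in DMSO. The best pair of HOXB6, 264 kb away in SKAP1, scored 7.69 in UNC6852, 10.7 in UNC1999 and 2.75 in DMSO.

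HOXB6 also met the fragment that holds the printed SKAP1-AS2 promoter. At 301 kb that pair scored 3.31 in UNC6852, 9.83 in UNC1999 and 0.33 in DMSO. From the HOXB5 bait the same fragment, 299 kb away, scored 5.69 in UNC6852, 3.003 in UNC1999 and 7.77 in DMSO. The fragment was therefore highest in UNC1999 from the one gene and lowest in UNC1999 from the other.

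HOXB7 and HOXB8 were reached only as uncaptured other ends. The 4 pairs of HOXB7 all belong to a fragment shared with HOXB6, with 2 called in UNC6852, 1 in UNC1999 and 1 in DMSO. HOXB8, which in mouse myeloid progenitors blocks differentiation when overexpressed, had 6 pairs on chr17:48612997-48617743, and all 6 were called in UNC6852, 2 in UNC1999 and 2 in DMSO. The scores ran from 5.54 to 8.63 in UNC6852, from 1.17 to 8.22 in UNC1999 and from 0.64 to 6.09 in DMSO. All 6 were higher in UNC6852 than in DMSO, by 0.99 on average, and by 0.73 on quantile-normalized scores. The UNC1999 difference was 0.35, and -0.01 after that normalization. Only pairs called in some profile are listed, and all 6 were called in UNC6852. The listing rule therefore bears on the UNC6852 differences, both as deposited and after normalization.

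The partners of HOXB8 were baits of COPZ2 and SKAP1. With the COPZ2 bait 589 kb away it scored 6.64 in UNC6852, 8.22 in UNC1999 and 0.64 in DMSO. With the 3 adjoining SKAP1 baits at 354 kb it scored 8.63, 6.67 and 8.37 in UNC6852, 7.33, 3.56 and 2.26 in UNC1999, and 3.34, 6.09 and 5.39 in DMSO. UNC6852 lay above DMSO in each, whereas UNC1999 lay above DMSO with 1 of these 3 baits. All 6 pairs share the HOXB8 fragment and several share baits, so they are not independent.

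HOXB9, the last gene of the main cluster, with a role in patterning the ribs of the mouse, had 47 pairs, with 21 called in UNC6852, 23 in UNC1999 and 20 in DMSO, 4 of them in all 3. Its mean asinh score was 1.90 in UNC6852, 1.90 in UNC1999 and 1.80 in DMSO. The best pair, 286 kb away in SKAP1, was far higher in DMSO: 8.04 in UNC6852, 2.81 in UNC1999 and 13.2 in DMSO. The longest pair called in all 3 profiles joined HOXB9 to a COPZ2 fragment 597 kb away, with 5.43 in UNC6852, 5.16 in UNC1999 and 8.14 in DMSO. The sign of the HOXB9 mean difference changed under 4 alternatives for UNC6852 and 3 for UNC1999.

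The baits of HOXB5, HOXB6 and HOXB9 with most pairs met a common set of fragments. They had 30, 23 and 24 partners. HOXB5 shared 15 partners with HOXB6 (50% of its own, 65.2% of those of HOXB6) and 13 with HOXB9 (43.3% of its own, 54.2% of those of HOXB9), and 8 were common to all 3, all in SKAP1 at 239 to 407 kb. Over these 8, the median score from HOXB5 was 8.57 in UNC6852, 7.08 in UNC1999 and 6.59 in DMSO. From HOXB6 it was 5.41, 4.84 and 4.78, and from HOXB9 5.27, 6.35 and 4.70 in UNC6852, UNC1999 and DMSO. The common set was scored in every profile, and all 3 baits called the same fragment in 1 case in UNC6852, 1 in UNC1999 and 2 in DMSO.

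HOXB13, 98.4 kb beyond HOXB9 and known as a factor of the prostate, behaved as a separate unit. It had 17 pairs, with 5 called in UNC6852, 8 in UNC1999 and 10 in DMSO. The UNC6852 score was lower than the DMSO score in 13 of 17, and the mean difference was -0.29. It stayed negative under all alternatives tried (-0.51 to -0.10). Of the 17 pairs, 7 were called in DMSO alone and 1 in UNC6852 alone, so the listing rule bears on this difference. The alternatives keep that rule, so the kept sign is no independent check. For UNC1999 the mean difference was -0.09, and it was positive under 2 alternatives. Over all genes with at least 3 cis pairs, 56.4% had a higher mean in UNC6852 than in DMSO, and 49.1% in UNC1999.

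Of the 17 pairs of HOXB13, 7 had their far end in TTLL6, which encodes an enzyme that adds glutamate chains to tubulin. The uncaptured fragment chr17:48721239-48726395, which also holds the gene PRAC1 and an end of PRAC2, met 3 baits in TTLL6 at 66.7 to 68.0 kb. The scores were 7.51, 5.85 and 5.90 in UNC6852, 7.28, 5.31 and 9.38 in UNC1999, and 8.67, 4.12 and 6.72 in DMSO. This contact was called in all 3 profiles from 2 of the 3 baits, and its pair at 66.7 kb was the best of HOXB13. It cannot be assigned to HOXB13 alone among the genes on that fragment. The bait starting at 48729574, in contrast, was called in 1 of 8 pairs in UNC6852, 3 in UNC1999 and 5 in DMSO. The next bait outside the window, chr17:48729861-48730517 at 1111 bp from HOXB13, was called in 0 of 5 pairs in UNC6852, 1 in UNC1999 and 4 in DMSO.

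**Figure D5:**
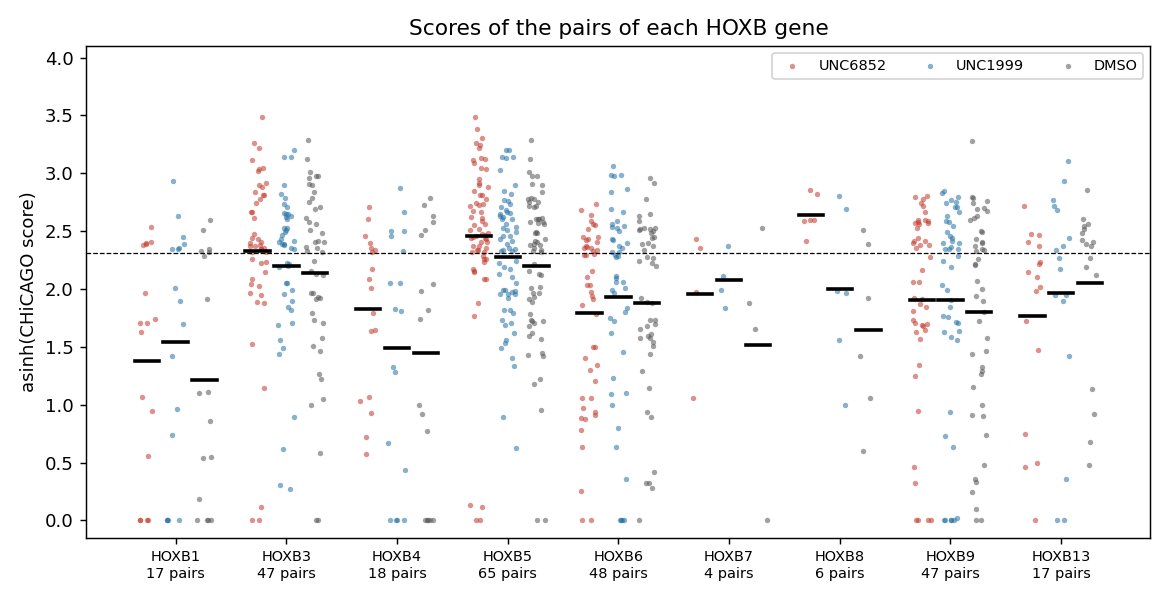
asinh scores (vertical axis) of all pairs of each HOXB gene with pairs, in UNC6852 (red), UNC1999 (blue) and DMSO (grey); short bars are means over pairs, the dashed line is the call score of 5, and the 27 pairs of the fragment shared by HOXB3 and HOXB5 are drawn under both. HOXB8 has the highest mean in UNC6852 (2.64), and HOXB13 is the only gene besides HOXB6 whose UNC6852 mean lies below its DMSO mean.

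Few pairs joined HOXB genes to each other. HOXB1 with HOXB3 over 17.1 kb scored 3.49 in UNC6852, 3.24 in UNC1999 and 6.09 in DMSO. A HOXB3 bait with the fragment shared by HOXB3 and HOXB5, 38.8 kb away, scored 5.67 in UNC6852, 2.11 in UNC1999 and 3.37 in DMSO. HOXB9 with HOXB13 over 103 kb scored 0.48 in UNC6852, 7.93 in UNC1999 and 0.50 in DMSO. Each was called in 1 profile, a different one each time.

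Among partner genes, the ends of COPZ2 were reached most, in 13 pairs from HOXB3 to HOXB9, with 7 called in UNC6852, 7 in UNC1999 and 4 in DMSO. LOC124904018 followed with 10 pairs, of which 6 were called in UNC6852, 6 in UNC1999 and 2 in DMSO. MIR10226 and SKAP1-AS2 had 5 pairs each, and the pseudogene LSM3P1 and the microRNA gene MIR1203 had 3 each. LOC124900395, MIR152, RNU6-1152P, SKAP1, SUMO2P17 and TTLL6 had 2 each. COPZ2, LOC124904018, SKAP1-AS2, LSM3P1 and MIR1203 each had 1 pair called in all 3 profiles. Most partners were at no end of a protein-coding gene: 74 pairs met another captured fragment away from such ends, and 137 met an uncaptured fragment without an end of a protein-coding gene, against 21 at the end of another protein-coding gene.

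The largest single differences between profiles were pairs that scored 0 or close to it on one side. For UNC6852 the 5 largest downward differences ran from -2.46 to -2.32 and belonged to HOXB13 (728 kb), HOXB1 (4788 kb and, in TTLL6, 277 kb), HOXB9 (600 kb, at COPZ2) and the COPZ2 pair of the shared fragment. DMSO scores in these 5 were 5.05 to 6.53, and 4 of them also scored 0 in UNC1999. The 5 largest upward differences, 2.38 to 2.52, were 3 pairs of HOXB9 (276, 312 and 395 kb, all in SKAP1), 1 of HOXB4 (358 kb, in SKAP1) and 1 of HOXB1 (573 kb, at PRR15L), with scores of 5.37 to 6.48 in UNC6852 and 0 to 0.10 in DMSO.

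For UNC1999 the 5 largest downward differences ran from -2.63 to -2.39. The first was a HOXB6 pair 434 kb away in SKAP1, with 5.07 in UNC6852, 0 in UNC1999 and 6.88 in DMSO. The others were pairs of HOXB9 (603 kb, at COPZ2, and 469 kb, in SKAP1) and of HOXB13 (428 kb, in SKAP1, and 728 kb), with DMSO scores of 5.38 to 6.77. After the HOXB1 and HOXB6 pairs already given, the largest upward ones joined HOXB4 to SKAP1 (418 kb), HOXB3 to EXOC7, a gene of the exocyst that tethers vesicles, 27544 kb away, and the shared fragment to ATP5MC1, a gene of the mitochondrial ATP synthase (304 kb), with 5.52 to 5.77 in UNC1999 and 0 in DMSO. Apart from the HOXB1 and HOXB6 pairs, scores on the called side stayed below 7, so these pairs lie near the listing threshold.

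COPZ2 shows how much single fragments varied. The bait chr17:48025396-48026360 had 8 HOXB pairs, with 4 called in UNC6852, 7 in UNC1999 and 1 in DMSO. Its neighbour chr17:48026393-48027860 had 4, with 2 called in UNC6852, 0 in UNC1999 and 3 in DMSO. The 3 adjoining SKAP1 baits at 315 to 369 kb likewise differed: the one starting at 48260757 was called in 3 of 8 pairs in UNC6852, 6 in UNC1999 and 5 in DMSO, and the one starting at 48261099 in 7 of 7 in UNC6852, 1 in UNC1999 and 2 in DMSO.

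Split by where the far end lay, the HOXB pairs did not move as a block. With the far end in SKAP1, 85 of 153 pairs were called in UNC6852, 76 in UNC1999 and 67 in DMSO, and the mean asinh difference was 0.24 for UNC6852 and 0.08 for UNC1999. On quantile-normalized scores these were 0.01 and -0.15, so the UNC1999 sign flipped. With the far end between SKAP1 and HOXB1, 17 of 32 pairs were called in UNC6852, 13 in UNC1999 and 21 in DMSO, and the difference was -0.17 for UNC6852 and -0.30 for UNC1999, and -0.35 and -0.49 on quantile-normalized scores. On average the nearer contacts were therefore lower and the SKAP1 contacts higher relative to DMSO as deposited, and in both scalings the nearer ones lay below the SKAP1 ones. As deposited, the median difference of the nearer pairs was -0.04 for UNC6852 and -0.33 for UNC1999, and of the SKAP1 pairs 0.20 and 0.05. Of the 32 nearer pairs, 22 were called in 1 profile only, as were 96 of the 153 SKAP1 pairs. The listing rule therefore bears on these differences. All cis pairs of 20 to 100 kb averaged 0.04 for UNC6852 and -0.02 for UNC1999, and those of 100 to 500 kb averaged 0.06 and -0.004. The nearer contacts fall in both of these distance classes.

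The nearer contacts came mainly from HOXB3, HOXB5 and HOXB4, with 16, 13 and 7 of the 32 pairs. A HOXB3 bait at 46.7 kb scored 10.2 in UNC6852, 8.06 in UNC1999 and 9.61 in DMSO and was stable. The shared fragment with the bait 84.9 kb away scored 8.28 in UNC6852, 5.17 in UNC1999 and 11.4 in DMSO. A HOXB4 bait with a bait at 83.9 kb scored 0.61 in UNC6852, 0.72 in UNC1999 and 8.08 in DMSO. Of the 32 pairs, 9 were called in all 3 profiles (28.1%). All cis pairs gave 14.1% at 20 to 100 kb and 9.42% at 100 to 500 kb, and the 32 pairs fall in both classes.

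Farther out, the mean differences of the treated profiles had the same sign beyond SKAP1 and opposite signs beyond HOXB13. The 27 pairs beyond SKAP1 had 14 calls in UNC6852, 12 in UNC1999 and 7 in DMSO, with a difference of 0.15 for UNC6852 and 0.23 for UNC1999 as deposited, and -0.15 and -0.07 after quantile normalization. The 18 pairs beyond HOXB13 had 5 calls in UNC6852, 10 in UNC1999 and 8 in DMSO, with differences of -0.05 and 0.48, and of -0.19 and 0.36 after that normalization. As deposited, the 12 of them from HOXB13 gave -0.13 for UNC6852 and 0.12 for UNC1999. The other 6 gave 0.12 and 1.20, and 5 of these 6 scored 0 in DMSO. Each of the 6 was called in 1 profile only, 4 of them in UNC1999, so the listing rule bears on their differences.

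Other genes give the setting. Among 36 neighbours on chromosome 17, 29 had at least 3 pairs, and 16 had a higher mean in UNC6852 than in DMSO and 21 in UNC1999, with median differences of 0.09 and 0.16. Of 9 genes for the HOX cofactors PBX, MEIS and PKNOX, homeodomain proteins that bind DNA together with HOX proteins, 5 had at least 3 pairs, and 1 of 5 was higher in each treated profile, with medians of -0.21 in UNC6852 and -0.15 in UNC1999. The mean difference over the pairs of HOXA was 0.07 for UNC6852 and -0.05 for UNC1999, of HOXC -0.01 and -0.04, and of HOXD -0.08 and -0.15. Outside the HOX clusters, the genes whose mean asinh scores over the 3 profiles were nearest to those of the HOXB pairs, among 541 with at least 20 pairs, were ARHGEF25, NPY1R and SLC12A5, at distances of 0.07, 0.07 and 0.08.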

How the data were processed

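HNES1 cells on day 5 were profiled under UNC6852, UNC1999 and DMSO, with 15 libraries and 3 biological replicates each. The deposited values are CHiCAGO scores, 1 column per condition pooled over its libraries per the labels, and the genome build is GRCh38 per the submitters' processing notes. Aligner, caller settings and the way the long uncaptured other ends were built are not given in the sources used here, and read numbers behind the scores are unknown.

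From the scores, pairs were assigned to genes of the RefSeq GRCh38.p14 annotation by position, called at 5, and compared as asinh differences, with exact Clopper-Pearson 95% intervals on shares of calls, which cover counting error only. The assignment and the quantile normalization were tested on simulated data. Biological replicates 3, 4 and 5 could not be separated in the pooled columns, so there was no test.

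Text names all 10 HOXB genes, each gene's pair of highest mean score, the 5 largest differences each way, pairs joining HOXB genes, the most frequent partner genes and the 3 nearest genes by mean score, the remainder by counts. Members and lists were chosen with earlier results of these data known. The fragments, baits, chromosome stretches and groups of baits described singly were chosen after their values were seen. Software was matplotlib 3.10.9, scipy 1.17.1, pandas 2.3.3, numpy 2.4.6 and Python 3.11.15.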

Additional observations from a re-analysis of the deposited data

How the results depend on the processing

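No paired analysis was possible because the scores of replicates 3, 4 and 5 were pooled into 1 column per condition, and for the same reason no replicate was left out. Directions of single genes rest on few fragments, and read depth behind the scores was unknown. Omission of the fragment shared by HOXB3 and HOXB5, of the HOXB5 bait or of HOXB13 was added after the data were seen and changed no count by over 1.5 times and no sign of the cluster mean. The cause of the changes below was not tested, except that other windows and thresholds admit other numbers of pairs (78 at 0 bp, 442 at 5000 bp and 422 with gene bodies, against 235).

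Calls in UNC6852, UNC1999 and DMSO were 41, 46 and 35 at a score of 7, 13, 8 and 4 at 10, 47, 40 and 37 with gene ends within 0 bp, 224, 203 and 195 within 5000 bp, and 216, 197 and 185 with gene bodies. The share of DMSO calls found again in UNC6852 and UNC1999 was 0% and 0% of 4 at a score of 10, and 56.8% and 54.1% at 0 bp. On quantile-normalized scores the mean differences of the cluster were -0.084 and -0.14 for UNC6852 and UNC1999.

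Gene means that changed sign on quantile-normalized scores were, for UNC6852, HOXB1 (-0.12) and HOXB9 (-0.16), and for UNC1999, HOXB3 (-0.13), HOXB4 (-0.17), HOXB5 (-0.10), HOXB6 (-0.22), HOXB8 (-0.012) and HOXB9 (-0.15). With ends within 0 bp, HOXB6 gave 0.50 and HOXB9 -0.30 for UNC6852, and HOXB3 -0.033 and HOXB13 0.066 for UNC1999. Within 5000 bp, HOXB6 gave 0.13 and HOXB7 -0.041 for UNC6852, and HOXB4 -0.058 and HOXB7 -0.084 for UNC1999. Gene bodies gave HOXB6 0.0027 for UNC6852. At a mean score of at least 5, HOXB9 gave -0.20 for UNC6852, and HOXB3 -0.056 and HOXB13 0.33 for UNC1999. Medians over pairs gave HOXB9 -0.13 for UNC6852, and HOXB3 -0.022 and HOXB6 -0.055 for UNC1999. Means over baits gave HOXB6 0.24 for UNC6852, and HOXB3 -0.0041 and HOXB9 -0.33 for UNC1999. Merged other ends gave HOXB6 -0.077 and HOXB9 -0.033 for UNC1999.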

Other observations

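The HOXB genes also had 169 listed pairs with other chromosomes, of which 51 were called in UNC6852, 67 in UNC1999 and 51 in DMSO. The whole list held 152688 pairs within 1 chromosome and 281836 between chromosomes. Of the latter, 96770 were called in UNC6852, 101879 in UNC1999 and 84499 in DMSO. Each of the 169 was called in 1 profile only, as were 99.7% of all listed pairs between chromosomes, whereas 160 of the 235 pairs within chromosome 17 were called in 1 profile. HOXB1 had 44 pairs with other chromosomes and 17 within its own, an order also seen over the whole list. Of the 44, 15 were called in UNC6852, 17 in UNC1999 and 12 in DMSO. HOXB2, which had no pair within chromosome 17, had 2 with other chromosomes, with 1 called in UNC6852, 1 in UNC1999 and 0 in DMSO.

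Only 2 of the 169 ended within 100 kb of another HOX gene. HOXB8 with a fragment near HOXD13 scored 5.45 in UNC6852, 0 in UNC1999 and 0 in DMSO. The fragment shared by HOXB3 and HOXB5 with one near HOXC4, HOXC5 and HOXC6 scored 0 in UNC6852, 0 in UNC1999 and 5.82 in DMSO. The highest score of the 169, 17.5 in UNC1999 with 0 in UNC6852 and 0 in DMSO, joined a HOXB9 fragment to mitochondrial DNA. Over all listed pairs between chromosomes the highest score was 3653, so such scores are not ranked against those within chromosome 17. Whether the mitochondrial pair reflects a contact was not tested.

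An uncaptured stretch inside HOXB6, chr17:48597053-48602092, lay 1302 bp from the nearer gene end. It was therefore not counted as a HOXB6 fragment, although it was the far end of 1 counted HOXB13 pair. It had 12 pairs, with 10 called in UNC6852, 7 in UNC1999 and 4 in DMSO, and median scores of 7.36, 5.40 and 3.42 in UNC6852, UNC1999 and DMSO. The stretch between HOXB8 and HOXB9, chr17:48617744-48620103, 1053 bp from HOXB9, had 16 pairs, with 7 called in UNC6852, 5 in UNC1999 and 5 in DMSO.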
